A study of Homo sapiens with 6 samples.

Results

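Keratins are the intermediate filament proteins of epithelial cells. A filament needs a type I and a type II keratin, which pair in equal amounts, and different epithelia use different pairs. In the prostate, KRT5 with KRT14 or KRT15 marks the basal layer, whereas KRT8 with KRT18 is the pair of the secretory luminal cells and of other simple epithelia. The RNA of 10 keratin genes, taken by symbol from a list of names, was examined among 27381 genes measured in DU145 cells. The basal or stratified members were KRT5, KRT6A, KRT13, KRT15 and KRT17. The simple-epithelial members were KRT7, KRT8, KRT18 and KRT19, and KRT80, a type II keratin of many epithelia, was kept apart from both.

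DU145 is a human cell line of metastatic castration-resistant prostate cancer. RNA was sequenced from 6 libraries, 2 each of cells given a scrambled sgRNA (Scr), cells with CD24 knocked out (CD24 KO) and cells with RCC2 knocked out (RCC2 KO). CD24 is a GPI-anchored surface protein and RCC2 a regulator of chromosome condensation. All 3 groups went through CRISPR/Cas9 treatment and sorting of GFP-positive cells, and the methods speak of clones for the knockouts and for the control. The sources used here do not say which clones were sequenced, so a knockout's effect and clonal variation cannot be told apart. The authors deposited 1 FPKM value per gene and condition (fragments mapped to a gene, scaled to transcript length and to the fragments mapped in all), so no SD, replicate check or test is possible and every difference given is a description. The name of the RCC2 KO column is also the full label of the first RCC2 KO library, and that column may hold 1 library or both.

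RNA of neither targeted gene was lower in its own knockout column than in Scr. CD24 was at 93.2 FPKM in Scr, 309 in the CD24 KO-labelled column and 214 FPKM in the RCC2 KO-labelled column. RCC2 was at 37.8, 14.2 and 41.8 FPKM in the same order. According to the study's methods, the knockout clones were checked by sequencing the edited DNA and at the protein level, and an edited gene can still be transcribed. The CD24 entry lies on chromosome Y, at a position that also holds TTTY14, and how its reads were assigned was not tested. From the values of both targeted genes, RNA kept in an edited clone and exchanged labels cannot be told apart, so the columns are named by their labels. CD24 was lowest in the Scr column and RCC2 in the CD24 KO-labelled column. The doubt thus covers the Scr column too, and Scr is also used here as a label. The columns also differed in their sums, from 388764 FPKM in the CD24 KO-labelled column to 451272 FPKM in Scr. RNR2, a ribosomal RNA, made up 5.96% of all FPKM in Scr and 5.08% in the RCC2 KO-labelled column, and was listed at 0 in the CD24 KO-labelled column. A keratin listed at 0 is thus reported as a listing and not as absence of its RNA.

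The 4 simple-epithelial members held between 94.4% and 95.5% of the summed FPKM of the 10 keratins in each column. Coding sequences and transcripts of the members in GENCODE 29 (GRCh38), 1 principal transcript per gene, were compared to see how far their reads can be told apart. The type II genes KRT7 and KRT8 were identical at 76.1% of 1350 aligned coding bases, and the type I genes KRT18 and KRT19 at 66.6% of 1154 bases. No stretch of 75 bases in the transcripts of KRT7, KRT19 or KRT80 occurred in a transcript of another gene. For KRT8, 15.7% of such stretches also occurred in its pseudogenes, of which GENCODE 29 names 50, and for KRT18 5.85%, with 68 named pseudogenes. At 150 bases neither gene shared a stretch with another. The methods give 150 cycles of paired-end sequencing and do not say whether each read had 150 bases. Exons of KRT8 and KRT18, which lie on opposite strands, overlap by 525 bases over all annotated transcripts and by 135 bases between the principal transcripts. The table gives both genes 1 position, chr12:53290971-53346685 in coordinates read as hg19. Since the labels and the methods describe different library kits, whether the reads keep their strand is not settled. Fragments from the overlapping exons could be counted for either gene.

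Keratin RNA in Scr was nearly all of the simple-epithelial kind, led by KRT8, KRT7 and KRT18. KRT8 was at 336 FPKM in Scr, 149 in the CD24 KO-labelled column and 348 FPKM in the RCC2 KO-labelled column. KRT18, its type I partner, was at 293, 141 and 305 FPKM in the same order. Both were thus lowest in the CD24 KO-labelled column and nearly level in the others. KRT7, a type II keratin of ductal and glandular epithelia, was at 320 FPKM in Scr, 398 in the CD24 KO-labelled column and 449 FPKM in the RCC2 KO-labelled column. KRT19, the smallest type I keratin and one that lacks a tail domain, was at 83.5, 113 and 107 FPKM. KRT7 and KRT19 were lowest in Scr. KRT80 was at 48.2, 42.5 and 69.9 FPKM, with its highest value in the RCC2 KO-labelled column. Among all genes of a column, KRT8 ranked 130 in Scr, 335 in the CD24 KO-labelled column and 130 in the RCC2 KO-labelled column, whereas KRT7 ranked 144, 88 and 94. With 1 value per condition, whether neighbours in these orders differ beyond replicate spread cannot be told. In coordinates read as hg19, the table places KRT7 at chr12:52626954-52642709, overlapping KRT7-AS, KRT19 at chr17:39679869-39684641 and KRT80 at chr12:52562780-52585784.

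The basal or stratified members were near 0. KRT5, the basal type II keratin, KRT13, a type I keratin of mucosal epithelia, and KRT17, a type I keratin of basal and regenerating epithelia, were listed at 0 in all 3 columns. KRT6A, a type II keratin induced in wounded epithelium, was listed at 0 in Scr, at 0.252 FPKM in the CD24 KO-labelled column and at 0.0641 FPKM in the RCC2 KO-labelled column. It shares 26.2% of its 75-base stretches with other genes, KRT5, KRT6B and KRT6C among them, and 9.25% of its 150-base stretches, so the low value is also uncertain in its assignment. KRT15, a type I keratin of basal cells, was at 0.947, 0.688 and 1.18 FPKM in Scr, the CD24 KO-labelled and the RCC2 KO-labelled columns. The 5 basal members summed to 0.0918% of the simple-epithelial sum in Scr, 0.117% in the CD24 KO-labelled column and 0.103% in the RCC2 KO-labelled column. The log2 difference of this ratio against Scr was 0.36 for the CD24 KO-labelled column, turning to -0.14 after quantile normalization, and 0.17 for the RCC2 KO-labelled column. The basal sum itself was 0.947 FPKM in Scr, 0.939 in the CD24 KO-labelled column and 1.24 FPKM in the RCC2 KO-labelled column. The simple-epithelial sum was 1032, 800.2 and 1209 FPKM, so in the CD24 KO-labelled column the higher ratio went with a lower simple-epithelial sum and a nearly level basal sum. In the same coordinates, KRT5 lies at chr12:52908359-52914243, KRT6A at chr12:52880958-52887181, KRT13 at chr17:39657233-39661865, KRT15 at chr17:39669997-39675270, overlapping MIR6510, and KRT17 at chr17:39775692-39780882.

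**Figure D1:**
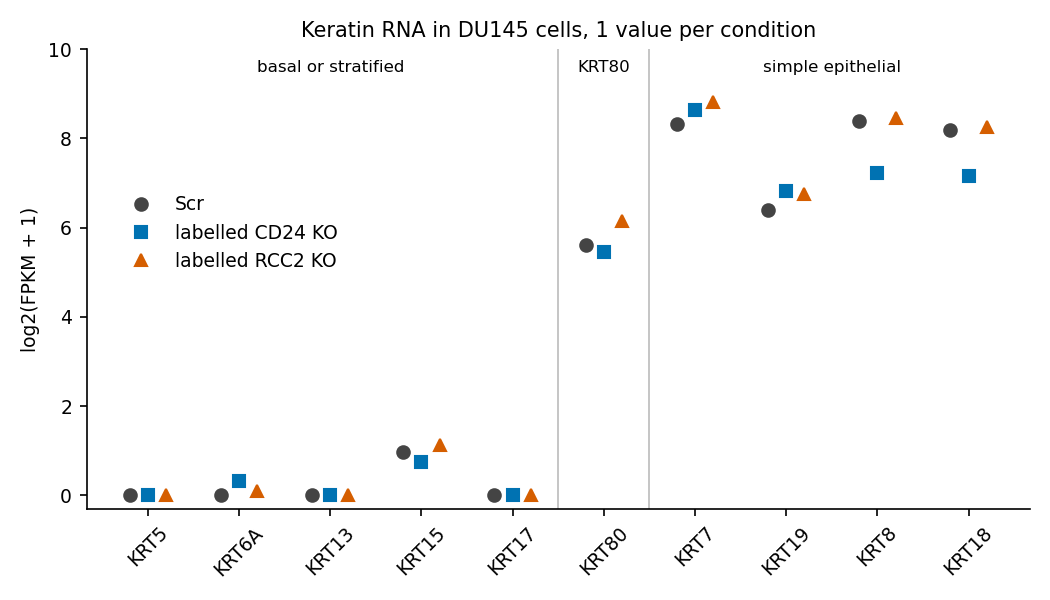
Level of the 10 keratins as log2(FPKM + 1) in Scr (circles), the CD24 KO-labelled column (squares) and the RCC2 KO-labelled column (triangles), with 1 value per condition and no error bar. The basal members lie at or near 0, and KRT8 and KRT18 lie lowest in the CD24 KO-labelled column.

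Differences were taken as log2(FPKM + 1) among 12822 genes with at least 1 FPKM in at least 1 column, and a gene was called when it differed at least 2-fold. Of the 10 members, 6 passed this minimum, and KRT15 did so only through the RCC2 KO-labelled column. Of these 6, KRT8 and KRT18 were called lower in the CD24 KO-labelled column than in Scr and no member was called higher, against 3.03% of all genes compared that were called lower, 2.67% called higher and 5.69% in either direction. Among the 704 genes with a mean of at least 100 FPKM, KRT8, KRT18, KRT7 and KRT19 among them, 8.24% were called lower and 2.56% higher. The log2 difference was -1.17 for KRT8, or 0.443 of the Scr value, and -1.05 for KRT18, or 0.482 of the Scr value. In bulk RNA, fewer cells with a keratin and less of its RNA per cell cannot be told apart. The lower call depended on how the columns were scaled. With the columns scaled to the same sum, the log2 differences were -0.96 for KRT8 and -0.84 for KRT18, and after quantile normalization -0.98 and -0.85. With the same median, KRT18 was at -0.97, and with the same sum over protein-coding symbols at -0.90, while KRT8 remained called in both. Scaling to the same sum also moved the median of all genes from -0.03 to 0.18 and the calls from 342 higher and 388 lower to 972 higher and 304 lower. That scaling raised all values against the fixed pseudocount and minimum, so 14222 genes were compared and its calls do not reflect the column sums alone. With the same sum over protein-coding symbols, 482 genes were called higher and 267 lower. Relative to the median of all genes, KRT8 lay at -1.14 as deposited and -1.13 with the same sum, and KRT18 at -1.01 under both.

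KRT7 and KRT19 lay on the other side of Scr without reaching 2-fold. Their log2 differences in the CD24 KO-labelled column were 0.31 and 0.43, and over all 8 alternatives they ranged from 0.31 to 0.55 for KRT7 and from 0.41 to 0.65 for KRT19. KRT80 was at -0.18, turning to 0.035 with columns scaled to the same sum, and KRT15 at -0.21. The median over the 4 simple-epithelial members was -0.37, against -0.03 over all genes, but it lies between a pair that was lower and a pair that was higher and describes neither.

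The make-up of the keratin RNA within each column does not change when a whole column is multiplied by a factor. KRT8 and KRT18 together held 58.1% of the summed FPKM of the 10 members in Scr, 34.3% in the CD24 KO-labelled column and 51.0% in the RCC2 KO-labelled column. KRT7 and KRT19 together held 37.3%, 60.5% and 43.4%. The pair with the larger share thus differed between the CD24 KO-labelled column and the other columns. The ratio of KRT7 to KRT8, both type II, was 0.954 in Scr, 2.67 in the CD24 KO-labelled column and 1.29 in the RCC2 KO-labelled column. The ratio of KRT19 to KRT18, both type I, was 0.285, 0.799 and 0.350. Within a pair the ratios moved less, since KRT8 to KRT18 stood at 1.15, 1.06 and 1.14 and KRT7 to KRT19 at 3.84, 3.53 and 4.20. The sum of type II over type I members was 1.87 in Scr, 2.32 in the CD24 KO-labelled column and 2.10 in the RCC2 KO-labelled column, so type II RNA was in excess in every column. The 10 members summed to 1081 FPKM in Scr, 844 in the CD24 KO-labelled column and 1280 FPKM in the RCC2 KO-labelled column, which is 0.240%, 0.217% and 0.286% of each column.

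**Figure D2:**
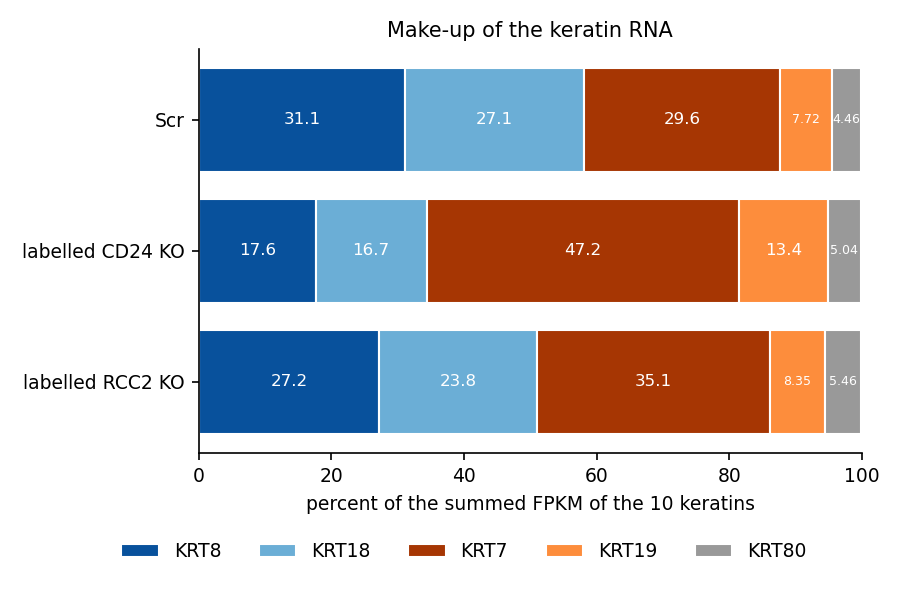
Share of the summed FPKM of the 10 keratins held by KRT8, KRT18, KRT7, KRT19 and KRT80, in percent, with 1 bar per condition (the basal members, about 0.1%, are not drawn). KRT8 and KRT18 hold 58.1% in Scr and 34.3% in the CD24 KO-labelled column, where KRT7 alone holds 47.2%.

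In the RCC2 KO-labelled column, no member was called in either direction against Scr, where 0.406% of all genes compared were called higher, 0.796% lower and 1.2% in either direction. Among genes with a mean of at least 100 FPKM, 0.852% were called higher and 0.994% lower. KRT8 and KRT18 had log2 differences of 0.05 and 0.06. KRT80 had the highest at 0.53, a ratio of 1.45, followed by KRT7 at 0.49 and KRT19 at 0.35. These were under 2-fold but lay above 98.1%, 97.5% and 94.1% of the genes compared. KRT15 was at 0.16. The median over the simple-epithelial members was 0.21, against -0.0036 over all genes.

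The RCC2 KO-labelled column was also set directly against the CD24 KO-labelled column, a comparison that leaves Scr out but repeats both knockout columns. KRT8 and KRT18 were called higher in the RCC2 KO-labelled column, at log2 differences of 1.22 and 1.11, against 4.02% of genes compared that were called higher, 4.3% called lower and 8.31% in either direction. Among genes with a mean of at least 100 FPKM, 9.52% were called higher and 2.56% lower. With columns scaled to the same sum the log2 differences of KRT8 and KRT18 were 1.02 and 0.91, and after quantile normalization 0.98 and 0.89. KRT18 lay at 0.97 with the same sum over protein-coding symbols. The calls over all genes moved from 515 higher and 551 lower to 381 and 1493 with the same sum, again among 14222 genes. With the same sum over protein-coding symbols they were 320 and 756. KRT80 was at 0.70, KRT15 at 0.37 and KRT19 at -0.08. KRT7 was at 0.17, turning to -0.03 with the same sum and -0.09 after quantile normalization.

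**Figure D3:**
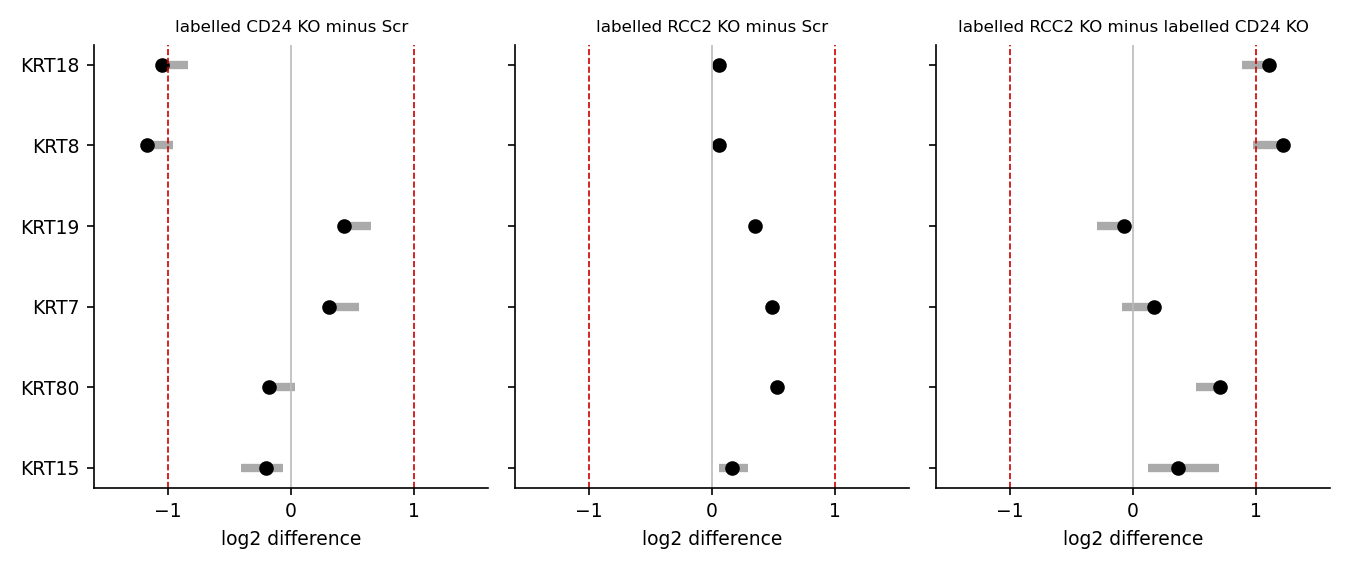
Log2 difference of the 6 members compared, for the CD24 KO-labelled column minus Scr, RCC2 KO minus Scr, and RCC2 KO minus CD24 KO. Points are values as deposited, grey bars span the alternative pseudocounts, filters and scalings (no replicate error exists), and dashed lines mark 2-fold. KRT8 and KRT18 lie past 2-fold as deposited in the comparisons with the CD24 KO-labelled column, and their bars cross the line.

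The table holds 55 keratin symbols, 27 on chromosome 12 and 28 on chromosome 17, of which 35 were listed at 0 in all 3 columns. Besides the members, 4 keratins reached 1 FPKM. KRT4, a type II keratin of mucosal epithelia that pairs with KRT13, was at 0.0791 FPKM in Scr, 2.81 in the CD24 KO-labelled column and 1.46 FPKM in the RCC2 KO-labelled column. It was called higher in both knockout columns at log2 differences of 1.82 and 1.19, but with a pseudocount of 5 these were 0.62 and 0.35, and its partner KRT13 was listed at 0. The hair keratins KRT81 and KRT86, which the table places at 1 shared position, were at 0.884 and 0.458 FPKM in Scr. They were at 3.17 and 1.94 FPKM in the CD24 KO-labelled column, called at 1.15 and 1.01, and at 0.827 and 0.654 FPKM in the RCC2 KO-labelled column. With a pseudocount of 5 they lay at 0.47 and 0.35, and KRT86 lay at 0.88 after quantile normalization. Between the knockout columns, KRT81 was called lower in the RCC2 KO-labelled column at -1.19, but lay at -0.49 with a pseudocount of 5 and -0.98 after quantile normalization. KRT81 and KRT86 passed the minimum only through the CD24 KO-labelled column and KRT4 only through the knockout columns, so the minimum admitted them where they are high and these calls support nothing about keratins as a group. KRT10, a type I keratin of differentiating epidermis, was at 3.83, 5.64 and 4.85 FPKM and was not called. KRT7-AS, transcribed across KRT7 on the other strand and named after its values were seen, was at 1.59, 6.01 and 3.76 FPKM, so KRT7 exceeded it 202-fold, 66.2-fold and 119-fold. If the reads do not keep their strand, the RNAs of KRT7 and KRT7-AS cannot be told apart.

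Keratin filaments are anchored at desmosomes between cells and at hemidesmosomes below them. Of 24 such genes, 21 were compared. In the CD24 KO-labelled column, 1 was called lower and 1 higher against Scr, with a median log2 difference of -0.13. Over all genes compared, 3.03% were called lower and 2.67% higher. DSP, desmoplakin, which ties keratin to the desmosome, was at 64.8 FPKM in Scr, 24.1 in the CD24 KO-labelled column and 41.2 FPKM in the RCC2 KO-labelled column, at log2 differences of -1.39 and -0.64 from Scr. ITGB4, the hemidesmosome integrin subunit, was at 6.61, 14.6 and 9.40 FPKM, called higher in the CD24 KO-labelled column at 1.04 but at 0.76 with a pseudocount of 5. JUP, plakoglobin, a desmosome plaque protein of the catenin family, was at 89.0 FPKM in Scr, 44.7 in the CD24 KO-labelled column and 42.0 FPKM in the RCC2 KO-labelled column. Its log2 differences were -0.98 and -1.06, which made it the only one of the 21 called in the RCC2 KO-labelled column, though it did not reach 2-fold with a pseudocount of 5. In that column 0.796% of all genes compared were called lower than in Scr. CD151, a tetraspanin of hemidesmosomes, was at 104, 96.9 and 111 FPKM, the highest of the list in Scr and in the RCC2 KO-labelled column. In the CD24 KO-labelled column DSG2, a desmosomal cadherin, was higher at 106 FPKM. No gene of the list was called between the knockout columns. The list's median was 0.08 in the RCC2 KO-labelled column against Scr and 0.09 against the CD24 KO-labelled column.

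Of 15 other intermediate filament genes, 12 were compared, 3 of them called lower and none higher in the CD24 KO-labelled column. The shares over all genes compared were 3.03% lower and 2.67% higher. INA, alpha-internexin of neurons, was at 10.1, 1.32 and 7.76 FPKM in Scr and the CD24 KO- and RCC2 KO-labelled columns. The nuclear lamins LMNB1 and LMNB2 were at 69.7 and 98.5 FPKM in Scr and at 24.5 and 46.9 FPKM in the CD24 KO-labelled column. In the RCC2 KO-labelled column, LMNB1 and LMNB2 were at 74.3 and 110 FPKM. LMNB2 was called at -1.05 as deposited and lay under 2-fold with a pseudocount of 5 and under all 4 other scalings, at -0.85 with the same sum. None of the 12 was called in the RCC2 KO-labelled column against Scr, and INA, LMNB1 and LMNB2 were called higher there than in the CD24 KO-labelled column. Between the knockout columns, 4.02% of all genes compared were called higher in the RCC2 KO-labelled column. The list's median log2 difference was 0.03 in the CD24 KO-labelled and 0.01 in the RCC2 KO-labelled column against Scr, and 0.02 between them. VIM, the mesenchymal intermediate filament vimentin and the most abundant of the list, was at 540 FPKM in Scr, 545 in the CD24 KO-labelled column and 605 FPKM in the RCC2 KO-labelled column. The RNA of the 10 keratins was 2.00 times that of VIM in Scr, 1.55 times in the CD24 KO-labelled column and 2.12 times in the RCC2 KO-labelled column.

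Among 25 transcription factors of epithelial and keratin genes, 17 were compared, and in the CD24 KO-labelled column 2 were called higher and none lower. Of all genes compared, 2.67% were called higher and 3.03% lower. CEBPB, a factor of epidermal differentiation, was at 6.33, 14.6 and 6.85 FPKM in Scr and the CD24 KO- and RCC2 KO-labelled columns. SNAI2, an EMT factor also found in basal cells, was at 1.47, 4.07 and 1.63 FPKM. With a pseudocount of 5, CEBPB lay at 0.79 and SNAI2 at 0.49, and SNAI2 lay at 0.98 after quantile normalization. None was called in the RCC2 KO-labelled column against Scr. The list's median was 0.19 and 0.02 in the CD24 KO- and RCC2 KO-labelled columns against Scr and -0.40 between them, beside -0.03, -0.0036 and 0.02 over all genes. FOSL1, the AP-1 subunit with the highest value, was at 199, 134 and 208 FPKM. Of 21 cornified envelope and squamous genes, 7 were compared and none was called in any comparison, while 8 were listed at 0 throughout. Its medians were 0.06, -0.04 and -0.11 in the same order. SFN, the epithelial 14-3-3 sigma protein, had the highest value of that list at 213, 216 and 199 FPKM.

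**Figure D4:**
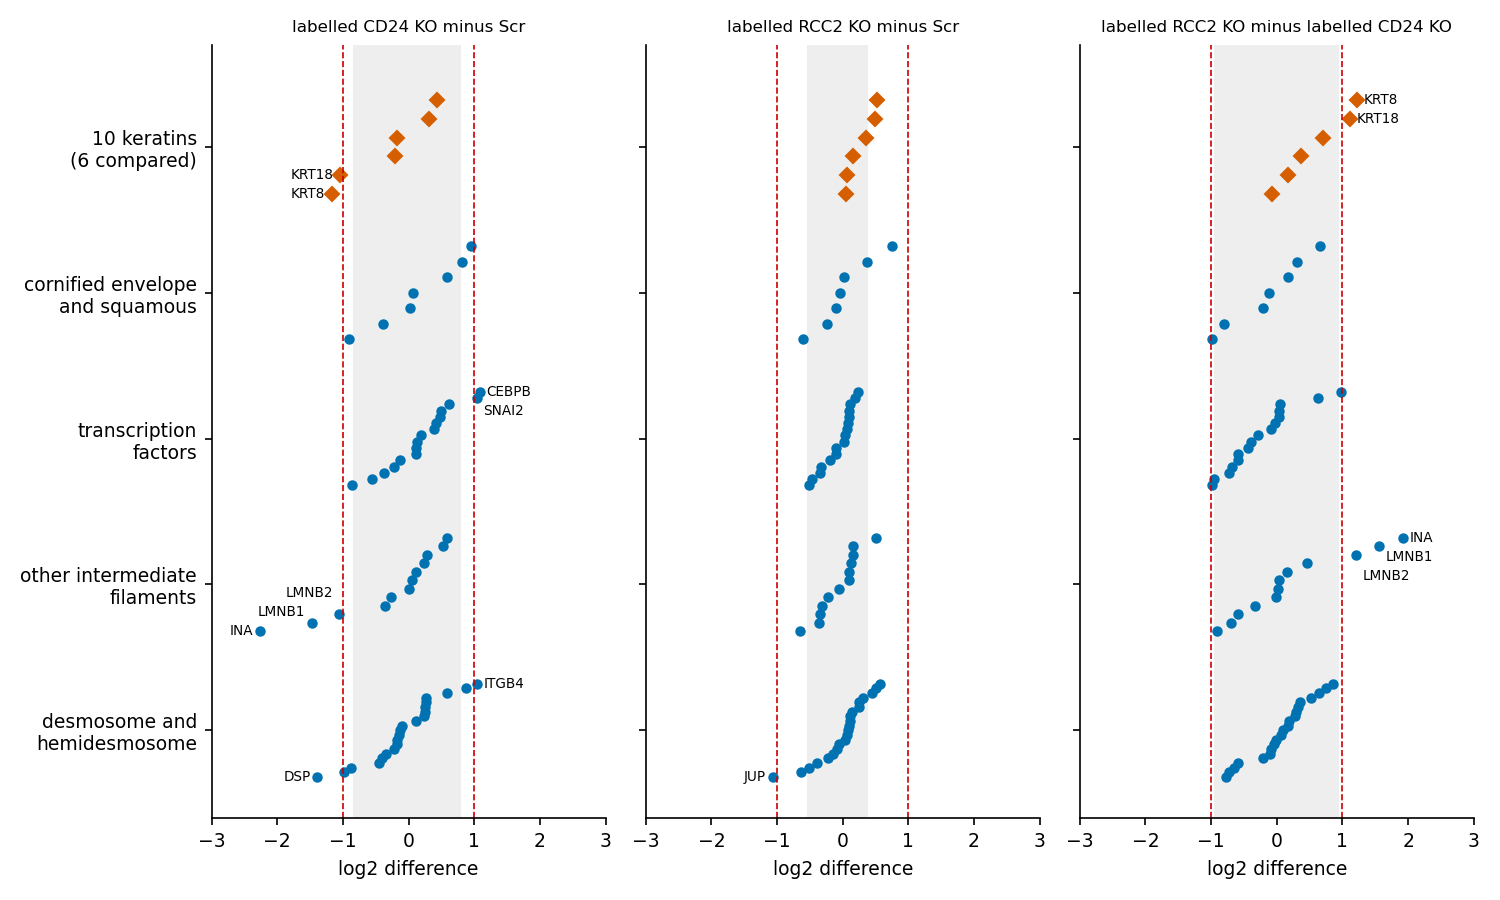
Log2 differences of the keratins compared (diamonds) and of the genes compared in 4 lists of related genes (circles, sorted within each list) in the 3 comparisons. The grey band spans the 5th to the 95th percentile of all 12822 genes, dashed lines mark 2-fold, and the genes drawn past them are named (1 transcription factor is not drawn). Few genes of any list lie past 2-fold, and JUP is the only one named in RCC2 KO minus Scr.

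Markers of prostate cell layers were set beside the keratins, and those named here were picked after their values were seen. Of 8 basal markers, 5 were compared and 1, ITGB4, was called higher in the CD24 KO-labelled column than in Scr. For all genes compared, the shares were 2.67% called higher and 3.03% lower. The 8 basal markers summed to 77.1 FPKM in Scr, 85.5 in the CD24 KO-labelled column and 79.2 FPKM in the RCC2 KO-labelled column. KRT5 and its partner KRT14 were listed at 0 in all columns, and TP63, the master factor of basal cells, did not pass the minimum. Of 11 luminal markers, 4 were compared, of which KRT8 and KRT18 were called lower in the CD24 KO-labelled column, and KLK2, KLK3 and HOXB13 were listed at 0 in all columns. The luminal sum, mostly KRT8 and KRT18, was 663 FPKM in Scr, 349 in the CD24 KO-labelled column and 690 FPKM in the RCC2 KO-labelled column.

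The 6 leukocyte markers summed to 51.2 FPKM in Scr, 134 in the CD24 KO-labelled column and 55.3 FPKM in the RCC2 KO-labelled column. This sum was highest where KRT8 and KRT18 were lowest, and the part of the markers in that result was not tested. Of the 3 leukocyte markers that were compared, 2 were called higher in the CD24 KO-labelled column than in Scr, against 2.67% of all genes compared. CD68, whose position in the table also holds MPDU1 and SOX15, was at 37.1 FPKM in Scr and 81.5 FPKM in the CD24 KO-labelled column, and CD79A at 0.793 and 37.0 FPKM. ITGB2, the other marker compared, was not called, at 13.2 FPKM in Scr, 15.5 in the CD24 KO-labelled column and 15.4 FPKM in the RCC2 KO-labelled column. The defining leukocyte markers PTPRC and CD3E were listed at 0 in all columns. The sum of 6 fibroblast markers lay between 0.500 and 0.928 FPKM over the columns, and that of 4 endothelial markers between 0.239 and 0.273 FPKM. The sum of 6 neuroendocrine markers was 1.77, 0.865 and 0.863 FPKM in Scr and the CD24 KO- and RCC2 KO-labelled columns. None of the fibroblast or endothelial markers passed the minimum.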

How the data were processed

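The authors deposited 1 table of FPKM values, with 1 column for each of the 3 conditions of 2 libraries each. The submitters' processing notes name HISAT, StringTie, Cufflinks and GATK without roles or versions, and the genome build is not given in the sources used here. None of the 10 keratins and 15.8% of 24864 symbols overlapped their GRCh38 position, so positions were read as hg19 and written from 1. Depth is unknown, because ratios of values under 0.3 FPKM showed no common step (the commonest held for 2.64% of 2277 genes). Values were compared as log2(FPKM + 1) with a minimum of 1 FPKM in at least 1 column and a 2-fold call. On this scale the change of low genes is understated. Limma was planned in case of values per library and could not be run.

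The members and lists were chosen with earlier results of these data known. All members were named, with the other keratins of at least 1 FPKM and, from each list, the gene of highest value and every called gene. Alternatives were pseudocounts of 0.1 and 5, no filter, 1 FPKM in every column, and 4 other scalings of the columns. The calculation was tested on simulated data (200 of 200 genes with a 4-fold change recovered among 8766 genes, CD24 KO against Scr). Transcripts were compared in GENCODE 29. Some genes that this rule would name, and the members' sequences, are not reported here. Python 3.11.15, NumPy 2.4.6, pandas 2.3.3 and matplotlib 3.10.9 were used.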

Additional observations from a re-analysis of the deposited data

How the results depend on the processing

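No paired analysis was possible because the columns hold 1 value per condition, and no replicate could be left out for the same reason. Of 93 values of the main comparisons under an alternative, 82 moved by less than 1.5 times. The count of genes called moved most. With a pseudocount of 0.1 it was 1262 for CD24 KO against Scr, 443 for RCC2 KO against Scr and 1850 for RCC2 KO against CD24 KO, in place of 730, 154 and 1066. A pseudocount of 5 gave 278, 54 and 380, and columns scaled to the same sum gave 1276, 288 and 1874. Scaling to the same sum raised all values against the fixed pseudocount and minimum, which also enters these counts. With the same sum over protein-coding symbols, 749 genes were called in CD24 KO against Scr and 148 in RCC2 KO against Scr. With at least 1 FPKM in every column, 67 genes were called in RCC2 KO against Scr. In that setting no basal member was left, so the basal median has no value there. Pseudocounts and filters do not enter the ratios of summed FPKM. The log2 difference of the basal to simple ratio between RCC2 KO and CD24 KO was -0.19 as deposited and 0.50 after quantile normalization, and the cause was not tested. Of 633 values of single genes under an alternative, 590 kept their side of 2-fold, 30 lost it and 13 gained it. The alternative filters cannot change a gene's log2 difference, and multiplying a column cannot change a ratio of sums. The counts of 82 and 590 thus include values that could not move and do not measure stability. The alternatives for genes other than the members were chosen after seeing the data.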
